A study of Mus musculus with 4 samples.

Results

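Genes of the choroid plexus epithelium were followed over 4 microarrays of dissected mouse thalamus and hypothalamus. A set of 34 genes was listed by name for their known expression in this epithelium. A probe was found by name for 32 of them, and 31 of the 21422 genes tested on the arrays were members. Mfrp and Spint2 had no probe matched by name and were not analysed here. The tight junction gene Cldn1 had probes but did not pass the filter on dim signals, because it was above background in only 1 sample of each group.

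The tissue came from mice at postnatal day 14, and the labels describe it as thalamus together with hypothalamus. The 2 dark-reared samples came from pups whose pregnant dams had been moved into a cage covered with black plastic before birth and cared for under dim red light until the tissue was taken. The 2 control samples came from mice kept in standard cages on a light and dark cycle. Both groups were labelled as biological replicates; strain and sex are not stated in the labels used here, nor whether a sample pooled several animals. Total RNA was labelled with Cy3 and hybridised to Agilent arrays with 41174 probes, each sample to its own array. The choroid plexus is not part of the labelled tissue.

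The choroid plexus is a fringe of epithelium that hangs into the brain ventricles, including the third ventricle, which lies between the thalami and the hypothalamus. Its cells secrete cerebrospinal fluid by moving ions and water across their apical membrane, and tight junctions between them form the barrier between blood and this fluid. They are known for making large amounts of transthyretin, the thyroid hormone carrier encoded by Ttr, and they take part in delivering folate, vitamins and hormones to the brain.

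Levels are log2 signals from which the array's own 75th percentile was subtracted, so that 0 is the signal of a bright probe and -5 is near the background. The 75th percentile was a signal of 794 and 774 in dark-reared 1 and 2, against 782 and 764 in control 1 and 2. The share of probes well above background was 70.6% and 70.9% in the dark-reared samples, against 73.3% and 65.9% in the control samples. Control 2 thus had the lowest share. Dark-reared 2 and control 2 were on the same slide, and the other samples were each on a slide of their own. Marker lists of the labelled tissue were compared between the samples. Deviations from a gene's own mean show how samples differ, not which tissue was dissected. Genes of the hypothalamus, 11 of them tested, lay on average -1.77 and 0.47 log2 from their 4-array means in dark-reared 1 and 2, against 1.28 and 0.02 in control 1 and 2. The 13 thalamus genes lay at -1.10 and 0.36 in the dark-reared samples, against 1.21 and -0.47 in the control samples. All 11 and all 13 of these genes were well above background on every array, and both lists were lowest in dark-reared 1 by this mean.

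Most of the choroid plexus genes were low together in a control sample, control 2. Of the 31 choroid plexus genes, 28 had their lowest level in control 2, whereas 17.5% of all genes tested did. Ttr was 19.4-fold higher in control 1 than in control 2, and Aqp1, the water channel of the apical membrane, was 19.9-fold higher. In dark-reared 2 most of these genes were moderately below dark-reared 1 and control 1, and those 2 samples of different rearing groups were close to each other. After adjustment over all genes, no choroid plexus gene was called different by rearing.

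Per sample, the 31 genes deviated from their own 4-array means by 0.60 log2 on average in dark-reared 1 and 0.21 in dark-reared 2, against 0.62 in control 1 and -1.43 in control 2, or -1.19 there with dim signals raised to the lowest signal well above background. Their summed signal was 79.3 and 48.4 times the array's 75th percentile in dark-reared 1 and 2, against 77.5 and 24.1 times in control 1 and 2. Control 2 was therefore below all others by both measures. In RNA from whole tissue, fewer choroid plexus cells and less RNA per cell cannot be told apart. The plot of levels by sample shows each of the 31 genes.

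**Figure D1:**
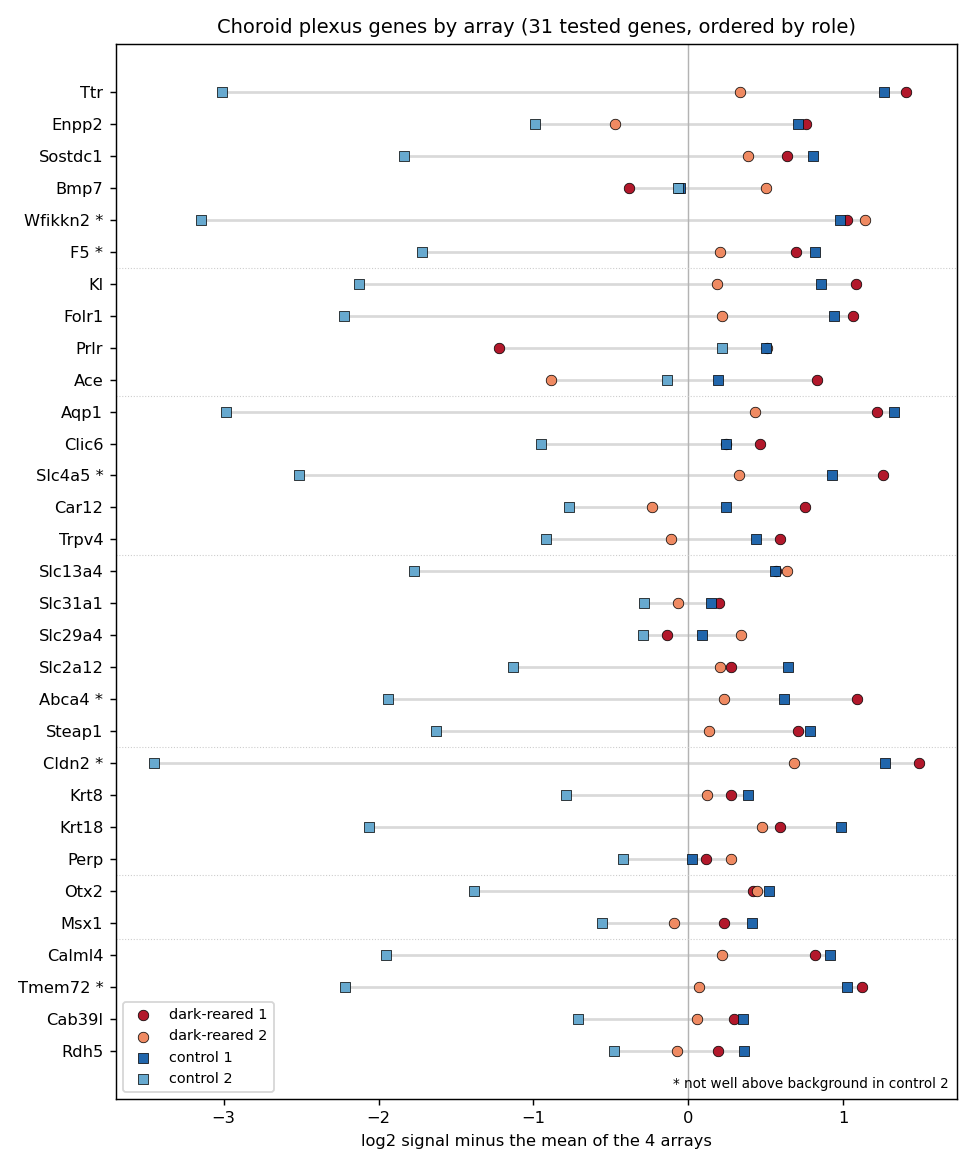
Log2 signal minus the mean of the 4 arrays for the 31 choroid plexus genes, with 1 point per sample (circles for dark-reared 1 and 2, squares for control 1 and 2) and an asterisk on the 6 genes not well above background in control 2. Control 2 is the lowest point in 28 of the 31 genes.

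The secreted and carrier proteins were led by Ttr. Its level was 2.65 in dark-reared 1 and 1.58 in dark-reared 2, against 2.51 in control 1 and -1.77 in control 2. The processed signals behind these levels were 4976 and 2308 in the dark-reared samples, against 4446 and 224 in the control samples. Ttr was thus clearly detected in every sample, the groups overlapped, and control 2 stood far below the rest. The group means were 2.11 ± 0.76 in dark-reared and 0.37 ± 3.02 in control samples (SD, n = 2 each). The difference of 1.74 ± 1.57 (SE) was smaller than the spread between the control samples, with an adjusted p of 1.00 in limma (unadjusted 0.331). On the shared slide, dark-reared 2 was 10.2-fold above control 2, while dark-reared 1 and control 1, on separate slides, differed by 0.14 log2.

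Enpp2 encodes autotaxin, an enzyme secreted into the fluid that makes lysophosphatidic acid. It lay at 5.19 and 3.96 in the dark-reared samples, against 5.14 and 3.44 in the control samples. Sostdc1, a secreted antagonist of BMP and Wnt signals, lay at 0.78 and 0.53, against 0.95 and -1.69. Both genes were lowest in control 2 and overlapped between the groups, and in Enpp2 dark-reared 2 was nearer to control 2 than to the other samples.

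Wfikkn2, a secreted protein that binds growth factors of the myostatin group, lay at -2.30 and -2.18 in the dark-reared samples, against -2.35 in control 1 and -6.48 in control 2. Coagulation factor F5 lay at -3.04 and -3.53 in the dark-reared samples, against -2.92 in control 1 and -5.46 in control 2. In control 2 neither gene was well above background, so only a bound can be given there. With control 2 raised to the lowest signal counted as well above background, Wfikkn2 was at least 4.29-fold higher in control 1 and at least 4.81-fold higher in dark-reared 2. The bounds for F5 were at least 2.89-fold and at least 1.89-fold.

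Bmp7, a secreted BMP ligand with known expression in many other cells of the brain and its coverings, did not follow this order. Its level was -0.10 and 0.78 in the dark-reared samples, against 0.22 in both control samples. Dark-reared 1 was the lowest and dark-reared 2 the highest sample.

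Among receptors and hormone signalling, Folr1 and Kl resembled Ttr. Folr1 encodes the folate receptor that carries folate across the epithelium, and lay at 2.11 and 1.26 in the dark-reared samples, against 1.98 and -1.18 in the control samples. Kl encodes klotho, the co-receptor of FGF23, and lay at -0.10 and -1.005, against -0.33 and -3.32. Between control 1 and control 2 the difference was 8.98-fold for Folr1 and 7.92-fold for Kl, more than either differed between the dark-reared samples. A second probe of Folr1, measured in every sample, kept control 2 lowest with a smaller difference of 3.67-fold between the controls.

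The prolactin receptor gene Prlr and the angiotensin-converting enzyme gene Ace departed from the order of the others. Prlr lay at -3.11 and -1.37 in the dark-reared samples, against -1.38 and -1.67 in the control samples, by its brightest probe. Its lowest sample was dark-reared 1. Another probe of Prlr gave -3.74 and -1.96, against -1.69 and -3.37, and a further probe gave -3.58 and -2.36, against -1.95 and -3.75. By those 2 probes dark-reared 1 and control 2 were both low, so the probes of Prlr disagreed on control 2. Ace lay at -0.22 and -1.94, against -0.86 and -1.19, and was lowest in dark-reared 2. The fitted differences were -0.72 ± 0.64 for Prlr and -0.06 ± 0.64 for Ace (SE), and these were the only members with a difference below 0.

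All 5 genes of ion and water transport were lowest in control 2, and in all 5 control 1 was at least 2-fold above control 2. Aqp1 lay at 0.98 and 0.19 in the dark-reared samples, against 1.09 and -3.22 in the control samples. On the shared slide Aqp1 was 3.42 log2 higher in dark-reared 2 than in control 2. Slc4a5, a sodium bicarbonate cotransporter of the apical membrane, lay at -0.98 and -1.91, against -1.31 and -4.75. It was not well above background in control 2, and control 1 was at least 8.81-fold and dark-reared 2 at least 5.80-fold higher.

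Clic6, a chloride intracellular channel protein, lay at 2.09 and 1.87 in the dark-reared samples, against 1.87 and 0.68 in the control samples. The samples of the 2 groups did not overlap, but dark-reared 2 and control 1 were close. A second probe of Clic6 gave -1.59 and -1.98, against -1.83 and -2.93, and there the groups overlapped. Car12, a membrane carbonic anhydrase, lay at -0.84 and -1.83, against -1.35 and -2.37. Trpv4, a cation channel that opens on swelling, lay at 0.77 and 0.07, against 0.61 and -0.74. For Car12 and Trpv4 both dark-reared 2 and control 2 were below both other samples.

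The 6 transporters of solutes and metals were all lowest in control 2, and Slc13a4, Slc2a12 and Steap1 were at least 2-fold higher in control 1 than in control 2. Slc13a4, a sulfate transporter, lay at 1.88 and 1.95 in the dark-reared samples, against 1.87 and -0.47 in the control samples. Here dark-reared 1, dark-reared 2 and control 1 were nearly level, and control 1 was 5.06-fold above control 2. Slc2a12, a glucose transporter, lay at -0.67 and -0.75, against -0.30 and -2.09. Steap1, of a family of metalloreductases, lay at -0.20 and -0.77, against -0.12 and -2.54. A second Steap1 probe had the same order, with -2.68 and -3.44 in the dark-reared samples, against -2.65 and -6.39 in the control samples, the last of them below the limit for well above background.

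Abca4, a lipid transporter known from photoreceptors, was dim, at -3.58 and -4.44 in the dark-reared samples, against -4.05 and -6.60 in the control samples. It was not well above background in control 2, and the bounds were at least 1.32-fold for control 1 and at least 1.01-fold for dark-reared 2 over control 2. Slc31a1, which imports copper, lay at 1.18 and 0.92, against 1.13 and 0.70. Slc29a4, a monoamine and nucleoside transporter, lay at -1.15 and -0.67, against -0.93 and -1.30. Both of these varied by under 2-fold over the 4 samples.

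The junction gene Cldn2 encodes a claudin that forms pores for cations and water in leaky epithelia. It lay at -1.74 and -2.55 in the dark-reared samples, against -1.96 and -6.68 in the control samples. Control 2 was not well above background, and Cldn2 was at least 5.63-fold higher in control 1 and at least 3.74-fold higher in dark-reared 2. Cldn1, the claudin that was not tested, lay at -4.18 and -5.23, against -4.45 and -6.55, by its brighter probe. It was above background in dark-reared 1 and control 1 alone.

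The keratins Krt8 and Krt18, which pair into the intermediate filaments of simple epithelia, were both lowest in control 2. Krt18 lay at 0.60 and 0.48 in the dark-reared samples, against 0.99 and -2.06 in the control samples, an 8.28-fold difference between the controls. Krt8 lay at -0.97 and -1.12, against -0.86 and -2.04, and its second probe at -0.97 and -1.53, against -1.09 and -4.30. The probes of Krt8 kept the order of control 2 below the rest but differed in its size, and the second probe was not well above background in control 2. Perp, a membrane protein of desmosomes, lay at 0.27 and 0.43, against 0.18 and -0.26. The groups did not overlap, and dark-reared 1 was close to control 1.

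The transcription factor genes were Otx2 and Msx1. Otx2 is a homeodomain factor needed for the choroid plexus to form and be kept, and Msx1 is a homeodomain factor of the dorsal midline. Otx2 lay at -1.77 and -1.74 in the dark-reared samples, against -1.67 and -3.58 in the control samples. It was nearly level in 3 samples and 3.76-fold lower in control 2 than in control 1. Msx1 lay at -0.35 and -0.67, against -0.16 and -1.13, with dark-reared 2 between control 2 and the other samples.

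The members' promoters were searched for TAATCC, the core bound by Otx2 and related homeodomain factors, on either strand. The windows ran from 250 bases before to 50 bases after each RefSeq start site, in mouse build GRCm38.p6. Of 34 windows for the 27 members with an entry, 4 (11.8%) held the letters, against 2320 of all 32851 windows (7.06%). They belonged to Otx2, Abca4, Ace and Mfrp. The 250 bases upstream of the start are shown for Otx2, Abca4 and Ace, tested members that hold a match, and for Cldn2, which varied strongly over the samples and holds none, with the match in capitals. A match is only a match of letters; Abca4 and Otx2 were lowest in control 2, and Ace was not.
Otx2, chr14:48665110-48665359, minus strand, 1 of 4 windows: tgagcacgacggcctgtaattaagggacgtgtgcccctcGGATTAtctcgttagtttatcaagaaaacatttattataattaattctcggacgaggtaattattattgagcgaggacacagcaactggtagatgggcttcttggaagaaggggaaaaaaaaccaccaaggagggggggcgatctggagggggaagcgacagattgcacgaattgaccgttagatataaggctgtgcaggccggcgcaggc
Abca4, chr3:122044210-122044459, plus strand: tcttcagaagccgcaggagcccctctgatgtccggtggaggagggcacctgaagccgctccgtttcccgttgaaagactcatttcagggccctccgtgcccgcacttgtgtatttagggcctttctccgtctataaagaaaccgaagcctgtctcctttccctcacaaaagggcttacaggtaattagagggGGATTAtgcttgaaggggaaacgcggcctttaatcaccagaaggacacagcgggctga
Ace, chr11:105967698-105967947, plus strand, 1 of 2 windows: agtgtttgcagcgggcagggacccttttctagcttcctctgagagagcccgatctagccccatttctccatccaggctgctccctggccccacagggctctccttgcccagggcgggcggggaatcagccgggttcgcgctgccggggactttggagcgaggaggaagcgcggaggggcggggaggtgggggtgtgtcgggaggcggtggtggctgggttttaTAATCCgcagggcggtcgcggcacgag
Cldn2, chrX:139800558-139800807, plus strand: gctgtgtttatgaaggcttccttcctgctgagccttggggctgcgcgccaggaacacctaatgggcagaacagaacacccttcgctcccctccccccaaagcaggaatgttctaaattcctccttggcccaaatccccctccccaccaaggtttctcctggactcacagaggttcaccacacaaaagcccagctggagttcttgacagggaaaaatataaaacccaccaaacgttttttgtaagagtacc
Between the letters and the start lay 205 bases for Otx2, 52 bases for Abca4 and 21 bases for Ace. In Otx2 and Abca4 they stand on the strand opposite to the gene and so read GGATTA.

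The remaining members were Calml4, Tmem72, Cab39l and Rdh5. Calml4, a calmodulin-like protein of brush borders, lay at 0.29 and -0.31 in the dark-reared samples, against 0.39 and -2.48 in the control samples. Tmem72, a transmembrane protein, was dim at -3.36 and -4.41, against -3.45 and -6.70. It was not well above background in control 2, where the bounds were at least 1.99-fold for control 1 and at least 1.03-fold for dark-reared 2. Cab39l, which binds the kinase complex of LKB1, lay at 1.68 and 1.44, against 1.74 and 0.67. The retinol dehydrogenase gene Rdh5 lay at 0.30 and 0.03, against 0.47 and -0.37. All 4 were lowest in control 2 and had dark-reared 2 as the next lowest sample.

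Within each rearing group the genes behaved differently. In these counts, signals not well above background were raised to the lowest signal that was so on the same array. Between the control samples, 21 of the 31 members were then at least 2-fold higher in control 1 than in control 2, against 2.34% of all genes tested, and 12 were at least 4-fold higher, against 0.294%. The members' median difference was 1.53 log2, or 1.91 with the dim signals as measured, and that of all genes was -0.02 either way. A difference of this size between the controls was not particular to the members. By the same 2-fold count it was found in 10 of 13 thalamus, 6 of 11 hypothalamus and 7 of 14 ependymal genes. The median of the thalamus genes was 1.94 log2. The count was 2 of 13 for cortex and hippocampus and 2 of 9 for oligodendrocytes. No meningeal, endothelial, tanycyte, astrocyte or neuron gene reached it. By signals as measured, control 2 was the lowest sample for 3 thalamus, 1 hypothalamus and 13 ependymal genes, against 17.5% of all genes. Dark-reared 1 was the lowest for 7 thalamus, 8 hypothalamus and 1 ependymal genes, against 28.4% of all genes. Between the dark-reared samples, by signals as measured, 5 of 31 members differed by at least 2-fold in either direction, against 9.78% of all genes, and the median difference was 0.33. The lowest level was in dark-reared 1 for 2 members (28.4% of all genes), in dark-reared 2 for 1 (28.3%) and in control 1 for none (25.8%). The highest level was in dark-reared 1 for 13 members (25.9% of all genes), in dark-reared 2 for 6 (28.9%), in control 1 for 12 (23.8%) and in control 2 for none (21.4%). In 22 members dark-reared 2 lay below dark-reared 1 and control 1 and above control 2, an order held by 5.4% of all genes. Between dark-reared 1 and control 1, Prlr was the only member at least 2-fold apart, lower in dark-reared 1, against 6.21% of all genes in either direction.

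**Figure D2:**
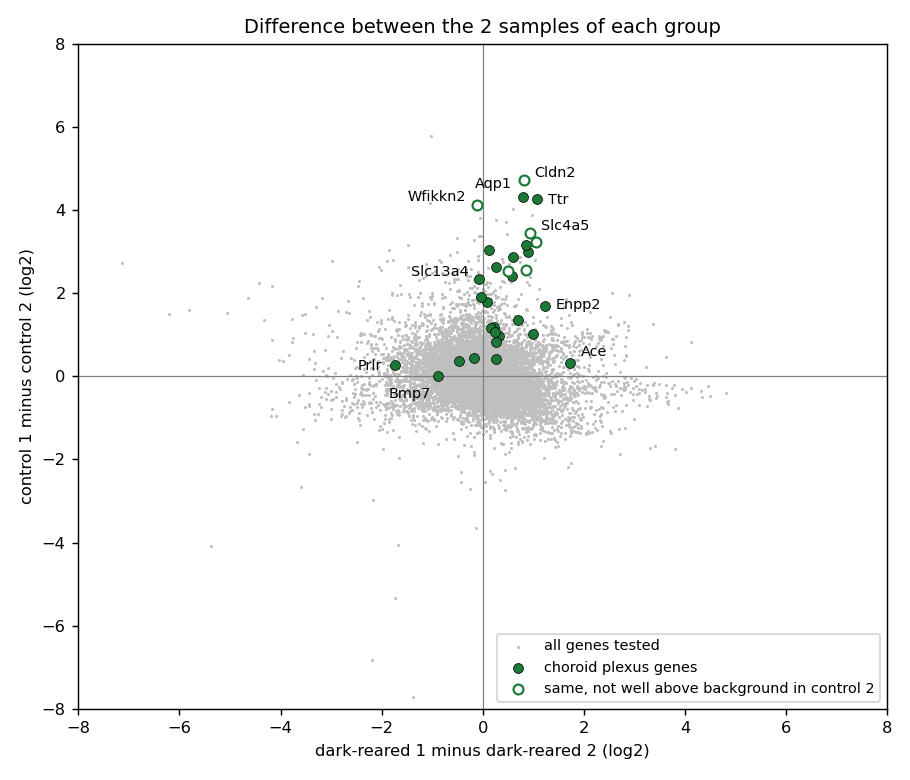
Difference between the 2 dark-reared samples (horizontal axis, log2) and between the 2 control samples (vertical axis, log2) for all genes tested (grey) and the 31 choroid plexus genes (green, open where control 2 was not well above background), by signals as measured. Most choroid plexus genes lie high on the vertical axis, with a median of 1.91, and near 0 on the horizontal axis, with a median of 0.33, while Prlr, Bmp7 and Ace lie away from them.

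The order did not rest on dim probes alone. Of the 25 members well above background in all 4 samples, 22 were lowest in control 2, against 15.6% of all genes under that filter. The median difference of these 25 members between control 1 and control 2 was 1.35 log2. The other 6 tested members were those below that limit in control 2, so only a bound exists there. With no filter on dim probes, 29 of the 32 members with a probe were lowest in control 2. Of the members' other probes, 10 passed the filter, and 7 of them were lowest in control 2.

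Across the 4 samples most members varied in the same direction as Ttr, many of them by less. Pearson's r with Ttr was at least 0.9 for 23 of the other 30 members, against 3.55% of all genes, and its median over the members was 0.98. With 4 points, of which control 2 stands apart, r describes little more than this 1 sample. Bmp7, Prlr and Ace were the 3 members with r below 0.5. By the distance between centred profiles, Aqp1 was nearest to Ttr of all genes tested, with a root mean square distance of 0.11 log2, and Folr1 and Kl, also measured in every sample, lay at 0.46 and 0.52. Members with a high r could lie farther off, such as Cab39l at 1.36 and Slc31a1 at 1.60. Bmp7 and Prlr were the farthest members, at 1.85 and 2.12.

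Outside the list, the 8 named genes nearest to Ttr by this distance were Kcne2, Wfdc2, Prr32, Ecrg4, Lce1m, Lalba, Dpep1 and Krt23. Kcne2, a subunit of potassium channels in the apical membrane, lay at 1.23 and 0.25 in the dark-reared samples, against 1.09 and -2.79 in the control samples. Wfdc2, a secreted protein of many epithelia, lay at -0.08 and -0.68, against 0.01 and -4.01. Ecrg4, the precursor of a peptide made in the choroid plexus, lay at 2.20 and 1.73, against 2.28 and -1.14. All 8 were lowest in control 2, which follows from how they were picked. Lalba encodes a protein of milk, Krt23 a keratin and Dpep1 a membrane dipeptidase. Prr32, Lce1m, Dpep1 and Krt23 were not well above background in control 2, so their distances rest on dim signals.

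The comparison that the study was designed for, dark-reared against control, gave no call among these genes. None of the 31 members passed an adjusted p of 0.05 in limma, where 0 (0%) of all genes did, and none reached an unadjusted p of 0.05, against 1.24% of all genes. The lowest unadjusted p of a member was 0.148, for Perp, whose difference was 0.39 ± 0.22 (SE). A permutation of 2 against 2 samples cannot go below a two-sided p of 0.333 for any gene.

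The fitted difference was above 0 in 29 of 31 members, against 48.2% of all genes, with a median of 0.84 log2 for the members and -0.01 for all genes. In 4 members both dark-reared samples lay above both control samples, against 9.53% of all genes, and these were Wfikkn2, Clic6, Slc13a4 and Perp. In no member did both lie below, against 9.57%, and the share without overlap in either direction was 19.1% of all genes. Wfikkn2, at 2.17 ± 1.47, and Slc13a4, at 1.21 ± 0.84 (SE), were also at least 2-fold apart, as were 1.2% of all genes without overlap. Their adjusted p was 1.00 in limma. Wfikkn2 was not well above background in control 2, so the size of its difference rests on a dim signal. With each sample left out in turn, the lowest difference was 0.11 for Wfikkn2 and 0.041 for Slc13a4. With dim signals raised to the lowest signal well above background on their array, the median of the members was 0.49. A difference of at least 2-fold in either direction was then found in 11 members, against 1.13% of all genes, and all 11 were higher in dark-reared samples, against 0.299%. The 6 members not well above background in control 2 passed the filter on dim signals only through the dark-reared samples. These were Wfikkn2, F5, Slc4a5, Abca4, Cldn2 and Tmem72, and the filter favoured a difference above 0 for them. Of the 25 members well above background in all samples, 23 had a difference above 0, with a median of 0.49.

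The size and the sign of the median rested on control 2. Without control 2 the median difference was -0.22, and 21 of the 31 members changed sign. Without control 1 it was 1.82, without dark-reared 1 it was 0.60, and without dark-reared 2 it was 1.02. On the slide that dark-reared 2 shared with control 2, the median difference, dark-reared 2 minus control 2, was 1.77 log2 by signals as measured. With dim signals raised to the floor it was 0.92, and 15 members were at least 2-fold higher in dark-reared 2, against 1.85% of all genes. Between dark-reared 1 and control 1, on separate slides, the median was 0.01. For dark-reared against control over all 4 samples, the median with local background corrected by normexp was 0.12, or 0.40 after outlying backgrounds were replaced, and over the members well above background in every sample it was 0.49.

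**Figure D3:**
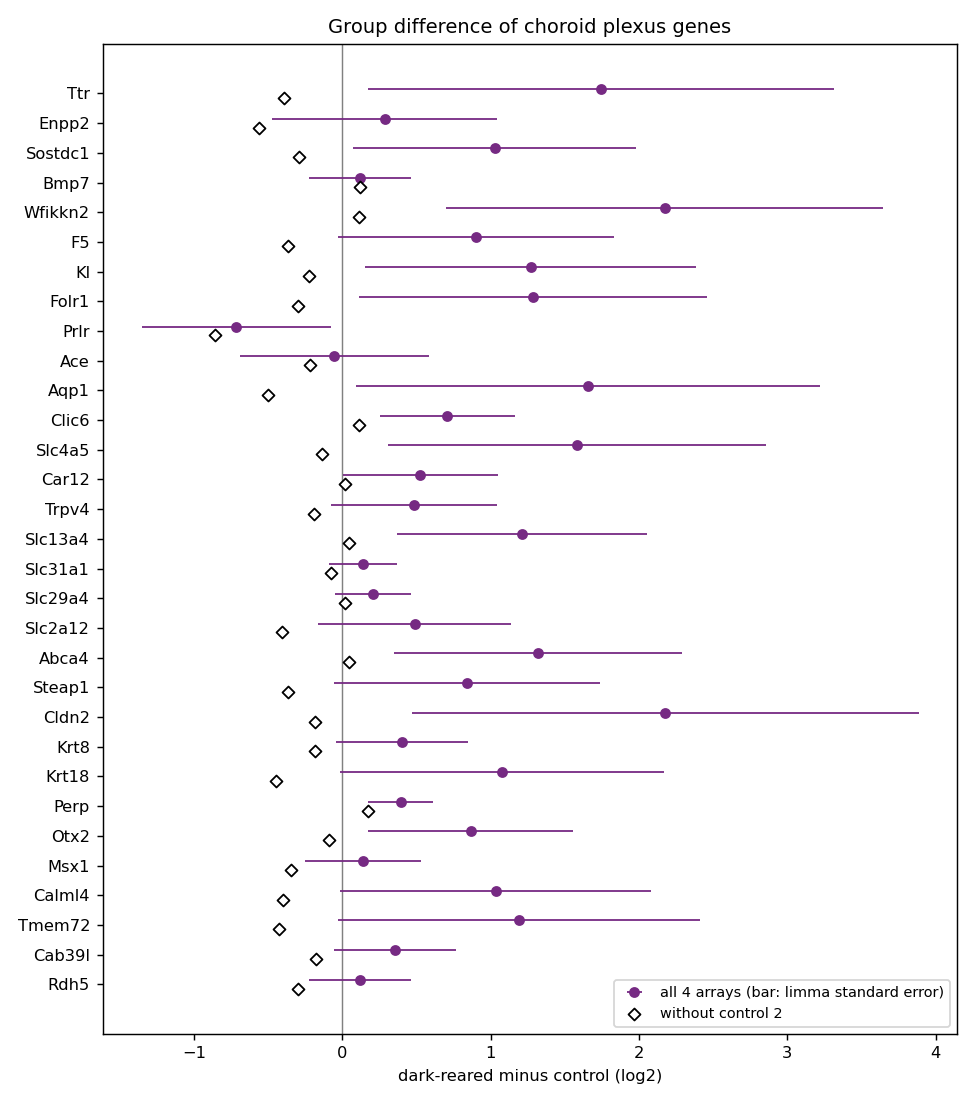
Log2 difference, dark-reared minus control, of each choroid plexus gene over all 4 arrays with its SE, and the same difference without control 2. Over all arrays 29 of the 31 differences are above 0, and without control 2 only 8 are.

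By role, the median difference between control 1 and control 2, with dim signals raised to the floor, was 1.90 log2 for the secreted and carrier proteins, 1.66 for receptors and hormone signalling, 1.35 for ion and water transport and 1.11 for solute and metal transporters. It was 1.83 for junctions and epithelial cytoskeleton, 1.44 for the transcription factors and 1.03 for the other members. The numbers lowest in control 2 were 5 of 6, 2 of 4, 5 of 5, 6 of 6, 4 of 4, 2 of 2 and 4 of 4 in the same order. The 3 exceptions are Bmp7, Prlr and Ace.

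A wider list of 42 genes of choroid plexus and cerebrospinal fluid transport, of which 35 were tested, lay closer to their 4-array means. These genes are also made elsewhere in the brain in many cases, and the part of this in their levels was not tested. Their mean deviation was 0.19 and 0.05 in the dark-reared samples, against 0.15 and -0.39 in the control samples. Of the 35, 18 were lowest in control 2, against 17.5% of all genes. In this list 7 genes were at least 2-fold higher in control 1 than in control 2, against 2.34% of all genes. No gene of the list passed the adjusted test between the rearing groups. Their differences were above 0 in 27 and below in 8, with a median of 0.17, and 48.2% of all genes were above 0.

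Besides Kcne2 and Ecrg4, Col8a1 and Lbp had the order of the members. Col8a1, a short-chain collagen, lay at 2.46 and 2.05 in the dark-reared samples, against 2.60 and 0.33 in the control samples. Lbp, which binds lipopolysaccharide, lay at -0.08 and -0.26, against -0.13 and -1.89. Slc16a8, a lactate transporter, lay at -1.93 and -2.76, against -2.22 and -3.25. All 3 were lowest in control 2.

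Other genes of this list took another order. Trf, the transferrin gene, which oligodendrocytes also express, lay at 2.57 and 0.15 in the dark-reared samples, against 2.66 and 1.60 in the control samples, with dark-reared 2 lowest. Rspo2, a secreted enhancer of Wnt signalling, lay at -2.66 in both dark-reared samples, against -3.31 and -4.04 in the control samples. It was lowest in control 2, like most members, but control 1 was also below both dark-reared samples. Such an order without overlap was held by 9.53% of all genes. The GABA transporter gene Slc6a13, also known from the meninges, lay at -1.28 and 0.53, against -0.89 and -0.58. Lrp2, an endocytic receptor, lay at -3.70 and -2.81, against -2.35 and -2.75, and the iodide transporter gene Slc5a5 at -4.30 and -3.34, against -3.0 and -3.38. These last 3 were lowest in dark-reared 1.

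Markers of the ependyma, the ciliated cells that line the ventricles next to the choroid plexus, were low in control 2 as well. Of 14 ependymal genes tested, 13 were lowest in control 2 by signals as measured, against 17.5% of all genes, Hydin being the exception. Their mean deviation was -0.04 and 0.30 in the dark-reared samples, against 0.41 and -0.68 in the control samples, the last of which was -0.57 with Spef2 raised to the floor. Their summed signal was 16.9 and 19.9 times the 75th percentile, against 23.9 and 11.1. Of the 14, 13 were well above background in all 4 samples.

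Among the 13 genes measured in every sample, the widest range was 1.44 log2, for Cfap126; among the 25 choroid plexus genes measured in every sample, Ttr reached 4.42 log2. Cfap126, a protein of motile cilia, lay at 1.30 and 1.42 in the dark-reared samples, against 1.87 and 0.43 in the control samples. Tekt1, a protein of ciliary microtubules, lay at 0.44 and 0.70, against 1.19 and -0.24. Tmem212 lay at -0.07 and 0.46, against 0.61 and -0.80. Unlike most choroid plexus genes, these 3 were higher in dark-reared 2 than in dark-reared 1. Spef2, of the cilium's central apparatus, was the gene not well above background in control 2, and its dim levels of -4.73 and -4.59, against -4.47 in control 1, give no order against control 2. Their part in the result was not tested.

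**Figure D4:**
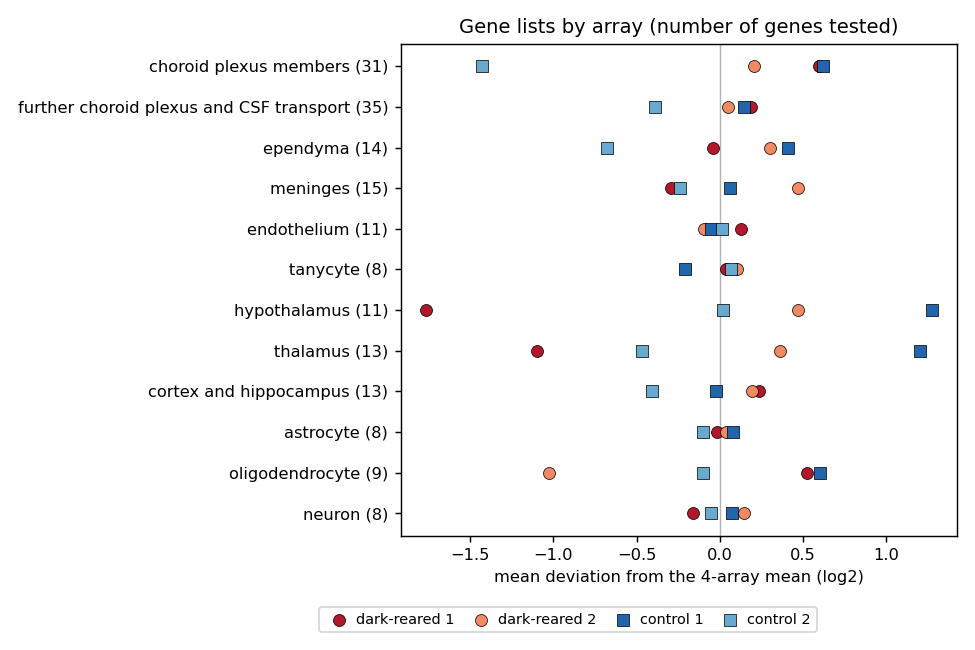
Mean deviation from the 4-array mean (log2) of each gene list in each sample, with the number of genes tested in brackets. The choroid plexus genes reach -1.43 in control 2, where ependyma reaches -0.68 and endothelium 0.02, by signals as measured.

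Other lists had other orders. The 15 meningeal genes lay at -0.29 and 0.47 in the dark-reared samples, against 0.06 and -0.24 in the control samples. Of these, 7 were lowest in control 2, against 17.5% of all genes, and 7 in dark-reared 1, against 28.4%. The 11 endothelial genes lay at 0.13 and -0.09, against -0.05 and 0.02, and the 8 tanycyte genes at 0.04 and 0.10, against -0.21 and 0.07. The 13 cortex and hippocampus genes lay at 0.24 and 0.19, against -0.02 and -0.41, so this mean was also lowest in control 2. By gene, 4 of the 13 were lowest in control 2, against 17.5% of all genes, and 6 in control 1, against 25.8%. In the 9 oligodendrocyte genes dark-reared 2 was low, at 0.52 and -1.03 in the dark-reared samples, against 0.60 and -0.10 in the control samples. The mean deviation of the 8 astrocyte genes stayed between -0.10 and 0.08, and that of the 8 neuron genes between -0.16 and 0.14. The part of the tissue lists in the levels of the choroid plexus genes was not tested.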

How the data were processed

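Per the file headers, spots were quantified by Agilent Feature Extraction, version 10.7.3.1, and the deposited processed signal is a background-subtracted intensity on a linear scale. The authors also deposited log2 values, with a median of 6.84 on each array and an unstated normalization, which served as an alternative. Outlier spots (79 to 103 per array) were left out, spots of a probe averaged, and the 75th percentile of each array subtracted after log2. RefSeq accessions named 26918 probes with 1 symbol, and 14256 had none; the annotation of the arrays is on mm9, so positions are given only for the promoter windows, from the RefSeq table on GRCm38.p6. A probe was kept if both arrays of some group were well above background, and the brightest stood for a gene, which left 21422 genes, 14328 with a symbol. No spot was saturated. Rearing groups, 2 arrays each, were compared in R 4.3.3 by limma 3.58.1 with moderated two-sided tests, adjusted over all genes by Benjamini-Hochberg, after tests on simulated data. The labels do not say which animals the replicates came from, so p-values measure the spread between these samples. Alternatives covered scaling, background correction, dim probes, outlier spots, probe choice, moderation, replicate number, slide and each sample left out. Every member is described; other genes are the 8 nearest to Ttr, up to 10 of the wider list and up to 4 of other lists with the largest range. Members and lists were chosen with earlier results of these data known. The number of arrays limits the precision.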

Additional observations from a re-analysis of the deposited data

How the results depend on the processing

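No member and no gene passed an adjusted p of 0.05 in limma under any setting run, and the lowest adjusted p of a member over the settings was 0.553; 266 genes and 0 members had an unadjusted p under 0.05. The replicate number was tried as a replicate block, with a median difference of 0.84 and 0 calls; the deviations of same-numbered samples correlated at -0.158 over genes, and the numbers do not pair the samples by the labels. Members without overlap (4) were 2 under normexp background correction and 1 with outlying local backgrounds replaced, a setting chosen after seeing the data, and members at least 2-fold apart without overlap (2) were 0 under both and 1 among members well above background on all 4 arrays. Normexp used median spot signals and moved the median of all genes by -0.11. It left 19 of 31 members lowest in control 2, against 24.0% of all genes. With outlying backgrounds replaced these were 28 members, against 16.2%. The members' median difference between control 1 and control 2 was 1.91 log2 in the main setting. It was 0.61 under normexp and 1.15 with outlying backgrounds replaced. Under normexp the differences of Wfikkn2 (-0.046), F5 (-0.60), Slc2a12 (-0.039), Abca4 (-0.61), Cldn2 (-0.039), Otx2 (-0.072) and Tmem72 (-0.62) changed sign. Its fitted background mean was -236 on control 2, against -1.90 and -5.70 in dark-reared 1 and 2 and 2.97 in control 1. The lowest background-subtracted signal was -15715.5 on control 2, against -7.5 and -8.0 in the dark-reared samples and 2.0 in control 1. Ace changed sign with backgrounds replaced (0.035) and with the mean of its probes (0.052), and Prlr within the shared slide (0.29). The cause was not tested. Raising dim signals to the lowest well above background on their array, also chosen after seeing the data, left both counts without overlap at 4 and 2 and gave a median difference of 0.49.

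Leaving out each sample in turn gave 8 to 28 members without overlap, 0 to 21 at least 2-fold apart without overlap, and medians from -0.22 to 1.82. The lone sample of an arm was assumed to vary like the other group. With 2 samples against 1, any gene separates without overlap more readily. These counts therefore cannot be set against those over all samples. The shares of all genes are not given for them or for the counts without overlap under normexp. Differences changed sign for 25 members, 21 of them without control 2. Their ranges were Ace -0.91 to 0.80, Aqp1 -0.50 to 3.81, Bmp7 -0.33 to 0.56, Cab39l -0.18 to 0.89, Calml4 -0.40 to 2.47, Cldn2 -0.19 to 4.54, Enpp2 -0.56 to 1.14, F5 -0.37 to 2.17, Folr1 -0.30 to 2.87, Kl -0.22 to 2.76, Krt18 -0.45 to 2.60, Krt8 -0.19 to 0.99, Msx1 -0.35 to 0.62, Otx2 -0.091 to 1.82, Prlr -1.58 to 0.15, Rdh5 -0.30 to 0.54, Slc29a4 -0.034 to 0.44, Slc2a12 -0.40 to 1.38, Slc31a1 -0.076 to 0.35, Slc4a5 -0.14 to 3.30, Sostdc1 -0.29 to 2.35, Steap1 -0.37 to 2.05, Tmem72 -0.43 to 2.81, Trpv4 -0.20 to 1.16 and Ttr -0.39 to 3.88. Abca4, Car12, Clic6, Perp, Slc13a4 and Wfikkn2 stayed above 0, some of them barely. Their lowest differences were 0.041, 0.016, 0.11, 0.17, 0.041 and 0.11, in the same order. Array number and the dim signals of 6 members in control 2 limit these values.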
